A study of Homo sapiens with 4 samples.

Results

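The 10 BCL2 family genes described here encode regulators of the mitochondrial pathway of apoptosis, and they were read in Ishikawa cells, a human endometrial adenocarcinoma line, that carry the Y537S mutation of estrogen receptor alpha (ESR1). They were chosen by name: BCL2, BCL2L1 and MCL1, which protect cells, BAX and BAK1, which form pores, and BCL2L11, BBC3, PMAIP1, BIK and BID, which carry only a BH3 domain. All 10 were found among the 26364 gene symbols of the count table, and all 10 passed the filter on low counts that left 15599 genes. All groups shared the ESR1 mutation, and each mutant line was 1 clone. The 2 clones were kept at least 5 days in hormone-depleted medium and then treated for 8 h with 10 nM estradiol (E2) or with 0.1% DMSO as vehicle, which gave 2 DMSO and 2 E2 libraries. The names of the count columns carry the tag A4 or B212, with 1 DMSO and 1 E2 library each; the labels do not link these tags to clone 1 or clone 2, so libraries are named by tag and treatment.

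Proteins of this family decide whether the outer mitochondrial membrane stays closed. Prosurvival members (BCL2, BCL-XL from BCL2L1, and MCL1) hold BAX and BAK in check. BH3-only proteins are stress sensors that block the prosurvival proteins or activate BAX and BAK directly, after which pores release cytochrome c and caspases are activated. Estrogen is known for raising BCL2 in hormone-responsive epithelium, and BCL2 is abundant in endometrial glands of the proliferative phase.

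The libraries held 71575816 to 85222856 counts, and no pair of them was alike within sampling noise. The epithelial markers EPCAM, KRT8, KRT18, KRT19, CDH1 and PAX8 were all present, with a summed level of 2201 to 2952 CPM (counts per fixed total of counts, after edgeR's TMM scaling of library sizes). Summed levels were 1.69 to 2.46 CPM for 5 immune markers and 2.34 to 5.13 CPM for 5 endothelial markers; CD3E, LST1 and PECAM1 had 0 counts in every library. The 5 stromal markers summed to 129.2 and 93.4 CPM in A4 and to 42.6 and 34.8 CPM in B212 (DMSO, then E2). Nearly all of this was COL1A1, while DCN and LUM had at most 10 counts in every library; the part of these genes in the results below was not tested. Between the tags, 4 of 6 epithelial and 2 of 2 tested endothelial markers were called higher in B212 and 2 of 2 tested stromal markers lower. Of all genes, 25.2% were called higher and 25.8% lower in B212. For E2 with tag as a block (edgeR, below), KRT18, PAX8, COL1A1 and VWF were called lower and 0 markers higher. In that fit 3.44% of all genes were called lower and 6.13% higher. ESR1 had 109.9, 97.0, 107.4 and 86.5 CPM in A4 DMSO, A4 E2, B212 DMSO and B212 E2. It was also called lower with E2 in the fit with the block (log2 fold change -0.25 ± 0.070, SE, adjusted p = 0.0330 by edgeR). Counts per gene do not show which allele was read.

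The first question was which members of the family these cells expressed most. Levels between genes were compared per length, as TPM (counts divided by transcript length and scaled to a fixed total) computed here from the longest annotated transcript. MCL1, a short-lived prosurvival protein, had the highest level, with a mean of 217 ± 27.0 TPM (SD over 4 libraries). BCL2L1 followed with 100.5 ± 15.2 TPM and BAX with 93.0 ± 7.20 TPM, and the ranges of these 2 genes overlapped. BID, which caspases cleave to an active form, had 36.4 ± 1.35 TPM and, relative to its mean, varied least between libraries. BAK1 (24.8 ± 4.42 TPM) and PMAIP1, which encodes NOXA, a partner of MCL1 (19.2 ± 2.18 TPM), overlapped in range.

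BCL2 itself, the founding member, stood seventh, with 14.7 ± 1.70 TPM, and overlapped with BCL2L11, which encodes BIM (13.7 ± 3.22 TPM). BIK, an endoplasmic reticulum BH3-only protein, had 7.74 ± 3.19 TPM and overlapped with BCL2L11. BBC3, which encodes PUMA, was lowest at 3.15 ± 0.47 TPM, with 128 to 193 counts per library. Neighbours in this order whose ranges did not overlap were MCL1 and BCL2L1, BAX and BID, BID and BAK1, PMAIP1 and BCL2, and BIK and BBC3. With the union of all exons as length, MCL1 had 306.0 TPM, BAK1 (38.8 TPM) moved above BID (32.01 TPM) and BCL2L11 (16.8 TPM) above BCL2 (14.6 TPM), so those 2 orders depend on the length used. Counts per gene do not separate splice forms, such as the long protective and the short death-promoting form of BCL2L1.

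**Figure D1:**
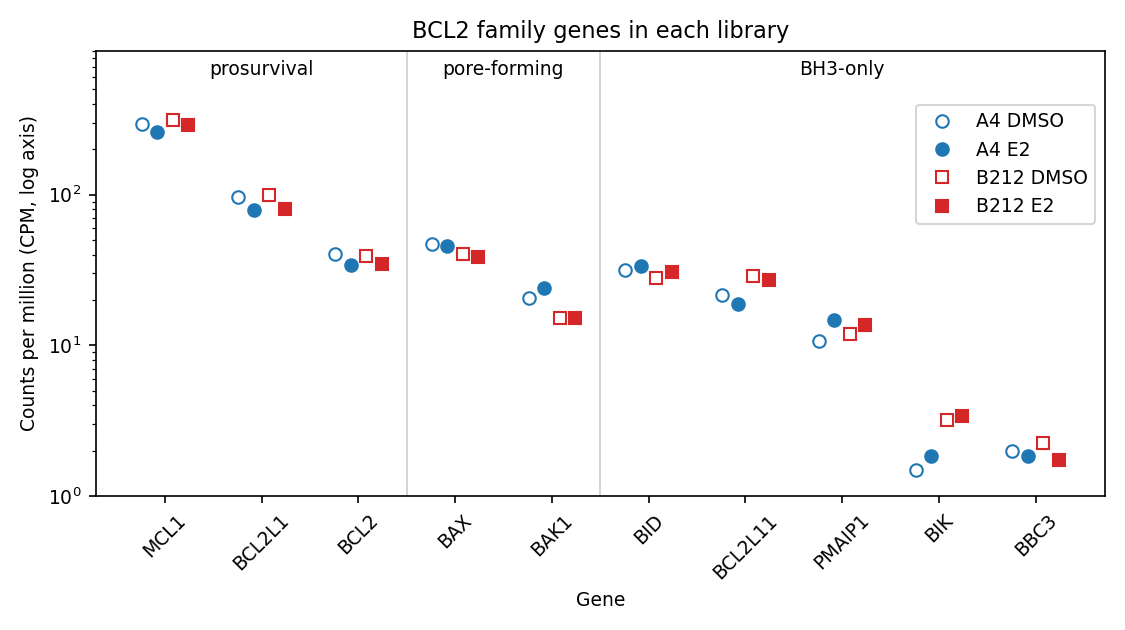
Level of each gene (CPM, log axis) in the 4 libraries; circles are A4, squares B212, open symbols DMSO and filled symbols E2. MCL1 lies between 260.2 and 313 CPM, and BIK and BBC3 lie below 4 CPM in every library.

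Summed by role on the TPM scale, the prosurvival genes took 62.9% and 58.4% of the level of the 10 genes in A4 (DMSO, then E2) and 65.8% and 63.0% in B212. The share of the pore-forming genes was 23.7% and 25.7% in A4 and 19.5% and 20.4% in B212. The share of the BH3-only genes was 13.4% and 15.9% in A4 and 14.7% and 16.6% in B212. The prosurvival share was thus lower, and the BH3-only share higher, in the E2 library of each tag. The ratio of summed prosurvival to summed pore-forming level was 2.66 and 2.27 in A4 and 3.37 and 3.09 in B212, so both B212 libraries lay above both A4 libraries. These shares describe the 4 libraries and were not tested.

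**Figure D2:**
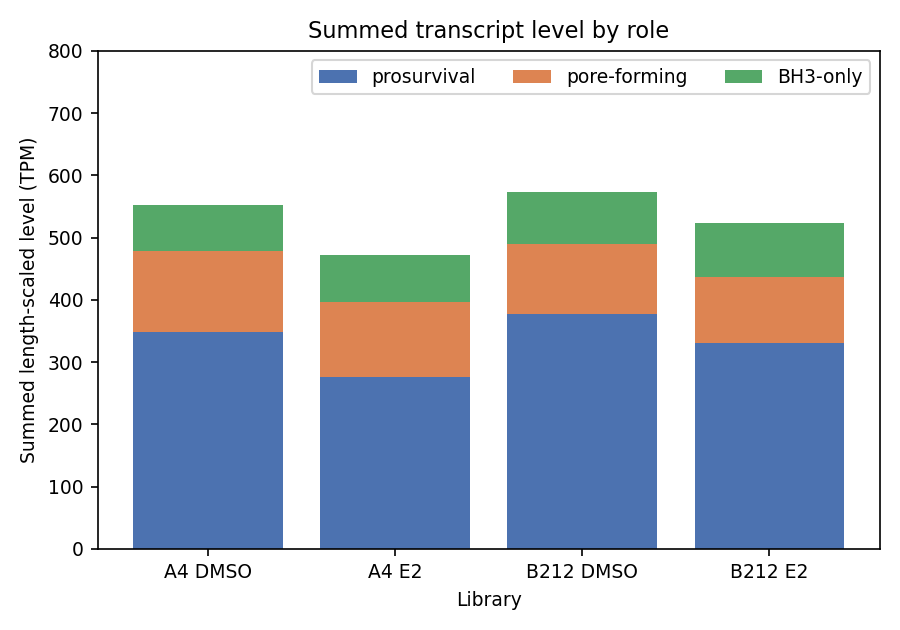
Summed length-scaled level (TPM, linear axis from 0) of the prosurvival, pore-forming and BH3-only genes in each library. The prosurvival part is the largest in all 4 libraries, from 275.6 TPM in A4 E2 to 377 TPM in B212 DMSO. TPM carries no TMM scaling, so differences between libraries depend on the scale. With E2 in A4, MCL1 went from 222 to 180 TPM but from 294 to 260.2 CPM.

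The second question was what E2 did to the family in cells with the mutant receptor. BCL2L1 fell with E2, and PMAIP1 rose, when the tag was taken into account as a block; these were the members called, 2 of 10, against 9.56% of all 15599 genes (1492 genes, edgeR quasi-likelihood test, adjusted p under 0.05). By direction the background was 6.13% higher and 3.44% lower, and scaling by library size alone split all genes into 911 higher and 775 lower in place of 956 and 536. Without the block, as planned, 0 of 10 members and 0% of all genes were called. There, 150 genes (0.962%), with BCL2L1 as 1 member of 10, had an unadjusted p under 0.05 by edgeR. DESeq2 called 1 gene, which was no member. A count of 0 in this fit does not show that E2 changed no gene. The biological coefficient of variation was 32.2% without the block and 5.99% with it. The fit with the block left 1 residual degree of freedom, so its p-values and intervals rest largely on spread shared across genes. The median absolute log2 fold change with the block was 0.16 for the members and 0.14 for all genes, so the members as a group moved about as much as other genes.

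BCL2L1 encodes BCL-XL, the prosurvival protein second in level here. It had 96.2 CPM in A4 DMSO and 79.4 CPM in A4 E2, against 98.9 CPM in B212 DMSO and 80.9 CPM in B212 E2. Both E2 libraries lay below both DMSO libraries, and the fall was nearly the same size in each tag. The DMSO mean was 97.5 ± 1.92 CPM and the E2 mean 80.2 ± 1.05 CPM (SD, n = 2 each). With the tag as a block it fell by 17.8%, a log2 fold change of -0.28 ± 0.069 (SE, 95% interval -0.43 to -0.14), with an edgeR adjusted p of 0.0152. Without the block the log2 fold change was the same, -0.28, with an adjusted p of 0.9999 by edgeR. BCL2L1-AS1, an antisense gene, and LOC124904883, both long noncoding, overlap BCL2L1; the kit was stranded, but the strand setting of the counting is not given in the sources used here, so whether their reads were counted to BCL2L1 is not known.

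PMAIP1 encodes NOXA, a BH3-only protein that binds MCL1. Its level was 10.7 CPM in A4 DMSO and 14.8 CPM in A4 E2, and 11.9 CPM in B212 DMSO and 13.7 CPM in B212 E2. Both E2 libraries were above both DMSO libraries, which held for 13.2% of all genes. The DMSO mean was 11.3 ± 0.82 CPM and the E2 mean 14.2 ± 0.78 CPM (SD, n = 2 each). With the tag as a block PMAIP1 rose by 26.0%, a log2 fold change of 0.33 ± 0.10 (SE, 95% interval 0.12 to 0.54), with an edgeR adjusted p of 0.0405. This call was lost with DESeq2 size factors in edgeR (adjusted p = 0.0782) and with limma-voom (adjusted p = 0.0599). After each library was corrected for a smooth dependence on the length and base composition of transcripts, the log2 fold change was 0.13 and the edgeR adjusted p 0.388.

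The other prosurvival genes had lower values with E2 in each tag but did not pass the threshold. BCL2 had 40.2, 34.4, 39.1 and 34.9 CPM in A4 DMSO, A4 E2, B212 DMSO and B212 E2. Its E2 libraries lay below its DMSO libraries, with a log2 fold change of -0.19 ± 0.078 (SE, with the block) and an edgeR adjusted p of 0.121. MCL1 had 294 and 260.2 CPM in A4 and 313 and 291 CPM in B212 (DMSO, then E2). The highest E2 value of MCL1, in B212, lay just below the lowest DMSO value, in A4, and the log2 fold change was -0.14 ± 0.070 with an edgeR adjusted p of 0.218. The intervals of these 2 genes reached from -0.36 to -0.031 for BCL2 and from -0.29 to 0.0058 for MCL1. With BCL2L1 and BBC3, they were the 4 members whose E2 libraries both lay below both DMSO libraries, which held for 11.8% of all genes.

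The pore-forming genes did not pass the threshold. BAX had 47.1 and 45.9 CPM in A4 and 40.1 and 38.8 CPM in B212 (DMSO, then E2), and a log2 fold change of -0.042 with a 95% interval of -0.20 to 0.12. BAK1 had 20.6 and 23.9 CPM in A4 and 15.3 and 15.3 CPM in B212. The value of BAK1 was thus higher with E2 in A4 and level in B212, and its log2 fold change with the block was 0.11 with a 95% interval of -0.077 to 0.30.

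The remaining BH3-only genes did not pass the threshold either. BCL2L11 had 21.6 and 18.9 CPM in A4 and 28.7 and 27.3 CPM in B212 (DMSO, then E2), a log2 fold change of -0.13 with a 95% interval of -0.31 to 0.044. BID had 31.7 and 33.5 CPM in A4 and 28.1 and 30.6 CPM in B212, a log2 fold change of 0.099 with an interval of -0.067 to 0.27. For both genes the difference between tags was at least as large as that between treatments, and the groups overlapped. BIK had 1.502 and 1.85 CPM in A4 and 3.19 and 3.40 CPM in B212, and BBC3 had 1.99 and 1.85 CPM in A4 and 2.26 and 1.75 CPM in B212. With so few counts the intervals were wide, from -0.16 to 0.52 for BIK and from -0.61 to 0.13 for BBC3.

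In each tag the E2 change could be read only from 1 DMSO and 1 E2 library, with an interval for counting error and no test. All 10 members had the same sign of change in A4 and in B212, as did 70.1% of all genes. Of these, 4 members were higher in both tags (33.3% of all genes) and 6 lower in both (36.8%). For BAK1 in B212 the change was 0.0061 on the log2 scale, and it was -0.0058 with DESeq2 size factors. BCL2L1 changed by -0.28 in A4 and -0.29 in B212. PMAIP1 changed by 0.47 in A4 but by 0.20 in B212, which differ by -0.26 with a 95% counting interval of -0.44 to -0.081. MCL1 changed by -0.18 in A4 and -0.11 in B212, and BAK1 by 0.21 and 0.0061. The counting intervals of these 2 differences ran from 0.034 to 0.11 and from -0.36 to -0.054. For the other 7 members the counting interval of the difference included 0, and whether culture-to-culture spread covers the 3 differences was not tested.

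**Figure D3:**
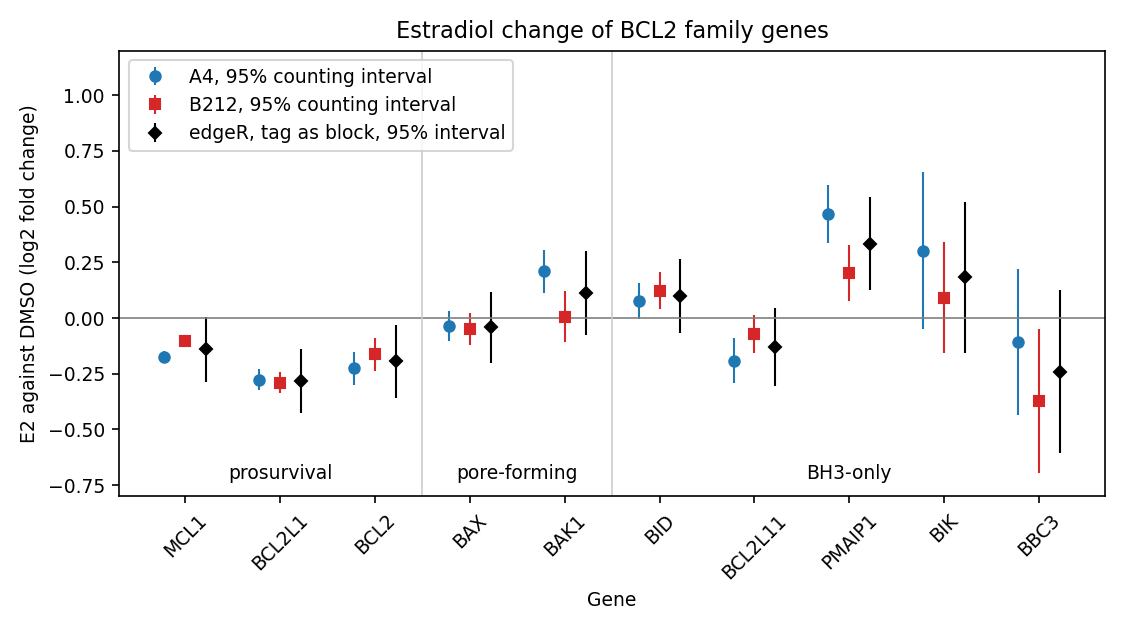
E2 change (log2 fold change) of each gene in A4 (circles) and B212 (squares) with 95% counting intervals, and the edgeR estimate with the tag as a block (diamonds) with its 95% interval. The 3 prosurvival genes lie below 0 in both tags, PMAIP1 lies above 0 in both, and for BCL2L1 the tags nearly coincide.

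The stretches before the start sites of the 2 genes called for E2 are shown because they moved in opposite directions. Promoter sequences from RefSeq (GRCh38.p14) were matched for 8 of the 10 members; MCL1 and BIK had no match. The 250 bases before the outermost start were searched on both strands for 7 motifs. The estrogen response element was read as GGTCA and its reverse complement at a spacing of 3 bases. The cAMP response element was searched as TGACGTCA. For AP-1 the letters searched were TGANTCA. An E-box was any occurrence of CACGTG. Sites for FOXO factors were searched with the letters TGTTTAC. The GC box was any occurrence of GGGCGG, and the TATA box that of TATAAA. In the sequences shown, capitals mark every match, and no matches of different motifs overlap.
BCL2L1 (chr20:31723964-31724213, minus strand): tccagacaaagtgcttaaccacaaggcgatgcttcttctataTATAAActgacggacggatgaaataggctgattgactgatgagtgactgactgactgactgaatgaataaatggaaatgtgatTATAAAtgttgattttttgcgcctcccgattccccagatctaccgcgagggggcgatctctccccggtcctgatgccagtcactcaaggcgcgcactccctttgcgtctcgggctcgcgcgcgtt
PMAIP1 (chr18:59899746-59899995, plus strand): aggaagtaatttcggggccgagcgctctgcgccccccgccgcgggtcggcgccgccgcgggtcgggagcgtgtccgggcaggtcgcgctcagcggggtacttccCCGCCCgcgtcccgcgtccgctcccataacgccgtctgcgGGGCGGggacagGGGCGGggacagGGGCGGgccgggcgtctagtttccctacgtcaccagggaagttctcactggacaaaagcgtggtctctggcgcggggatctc
The BCL2L1 stretch held 2 matches to the TATA box. They began 208 and 125 bases before the start, and whether either is used was not tested. Any match to the TATA box was found in 11.2% of 27305 such stretches in RefSeq, and in 5.51% of the 11250 of tested genes. The PMAIP1 stretch held 4 matches to the GC box. Any match to the GC box was present in 42.2% of all stretches and in 65.3% of those of tested genes. The PMAIP1 stretch had 72.8% GC and 36 CpG dinucleotides, the most among the 8 members, while BCL2L1 had 50% GC and 17 CpG. The estrogen response element was found in 0 of the 8 members and in 0.0439% of all stretches (0.00889% for tested genes). GGTCA alone, which is contained in the full element, was found in BAX and BID and in 33.1% of all stretches (30.5% for tested genes), and not in BCL2L1 or PMAIP1.

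The third question was how the family differed between the cells of the tags. In B212 the BH3-only genes BIK and BCL2L11 were higher and the pore-forming genes BAX and BAK1 were lower than in A4, while the prosurvival genes did not pass the threshold. These 4 of 10 members compare with 51.0% of all genes (7950 genes, 25.2% higher and 25.8% lower; edgeR quasi-likelihood test with treatment as a covariate, adjusted p under 0.05). The share of members was below the background, and so was their median absolute log2 fold change, 0.14 against 0.28 for all genes. Under scaling by library size alone the members split into 3 higher and 1 lower, since MCL1 was called (log2 fold change 0.19, adjusted p = 0.0263 by edgeR) and BAX was not. Over all genes that scaling gave 4761 higher and 3176 lower in place of 3927 and 4023. The libraries of a tag are 1 DMSO and 1 E2 culture, so the p-values cover only the spread between these libraries and compare these cells.

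BIK had 1.502 and 1.85 CPM in A4 and 3.19 and 3.40 CPM in B212 (DMSO, then E2), from 110 to 272 counts. Both B212 libraries lay above both A4 libraries, which held for 34.7% of all genes. Its log2 fold change was 0.98 ± 0.16 (SE, 95% interval 0.64 to 1.32), a rise of 96.6%, with an edgeR adjusted p of 4.93e-05. BCL2L11, whose protein BIM binds every prosurvival member, was 38.7% higher in B212; its log2 fold change was 0.47 ± 0.084 (95% interval 0.30 to 0.65) with an edgeR adjusted p of 9.94e-05. Its B212 libraries, at 28.7 and 27.3 CPM, were both above its A4 libraries, at 21.6 and 18.9 CPM.

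In B212, BAK1 was lower, with a log2 fold change of -0.54 ± 0.090 (SE, 95% interval -0.73 to -0.35), or 31.2% less, with an edgeR adjusted p of 5.06e-05. Its 2 B212 libraries were nearly equal at 15.3 CPM, and its A4 libraries had 20.6 and 23.9 CPM. Of the 32-base words of BAK1 transcripts, 16.4% also occur in other genes, nearly all of them in the pseudogene copy BAK1P1. The counts hold no gene named BAK1P1, and how reads matching both were aligned or dropped is not known. BAX was also lower, with a log2 fold change of -0.24 ± 0.076 (95% interval -0.40 to -0.077), with an edgeR adjusted p of 0.0139. Its B212 libraries (40.1 and 38.8 CPM) lay below its A4 libraries (47.1 and 45.9 CPM), as those of 32.8% of all genes did. The BAX call was lost with library sizes alone (adjusted p = 0.0835 by edgeR) and with DESeq2 (adjusted p = 0.0510).

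The prosurvival genes differed little between the tags. The log2 fold change was -0.0083 for BCL2 (95% interval -0.17 to 0.15), 0.034 for BCL2L1 (-0.11 to 0.18) and 0.13 for MCL1 (-0.020 to 0.27). The intervals of BCL2 and BCL2L1 thus left out changes of 0.2 or more in either direction, while that of MCL1 did not. PMAIP1 had a value of 0.016 (-0.19 to 0.22), BID one of -0.15 (-0.32 to 0.014) and BBC3, the member lowest in level, one of 0.053 (-0.31 to 0.42).

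**Figure D4:**
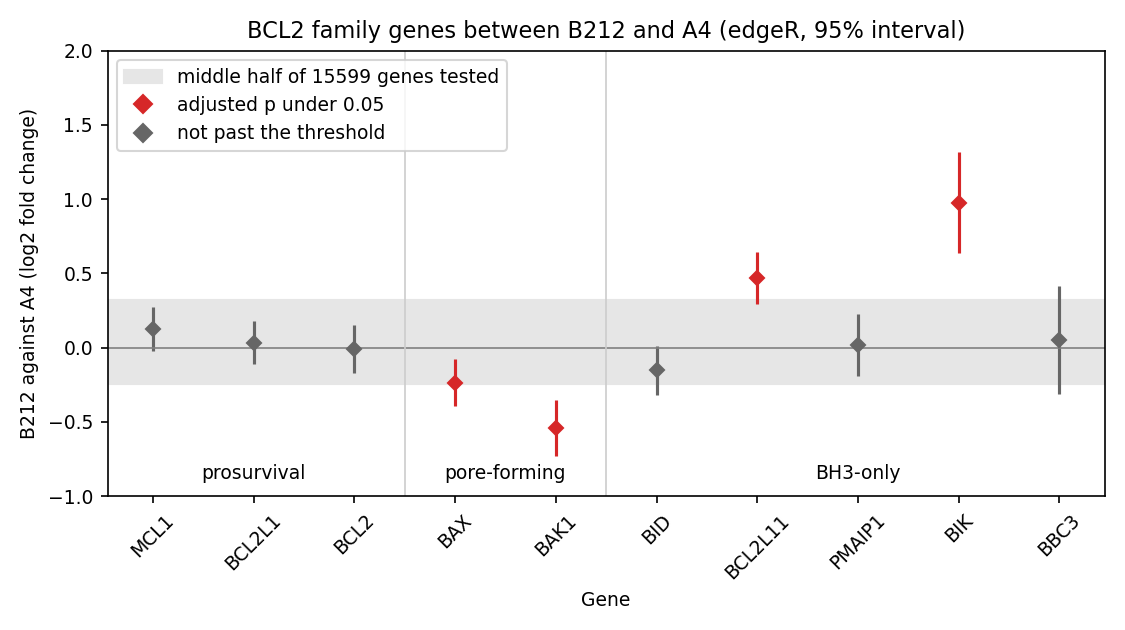
B212 against A4 (log2 fold change, edgeR with treatment as a covariate) with 95% intervals; the grey band runs from the lower to the upper quartile of the 15599 genes tested. BIK and BCL2L11 lie above the band, BAK1 lies below it, and BAX lies at its lower edge of -0.25.

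The stretches before the start sites of the 3 matched genes that differed between the tags are shown with the same motifs in capitals.
BAX (chr19:48954625-48954874, plus strand): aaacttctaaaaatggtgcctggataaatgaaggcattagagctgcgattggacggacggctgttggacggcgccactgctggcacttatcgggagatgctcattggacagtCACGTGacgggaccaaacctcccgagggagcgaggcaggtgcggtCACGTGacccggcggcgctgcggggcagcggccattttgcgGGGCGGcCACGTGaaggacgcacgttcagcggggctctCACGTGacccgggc
BAK1 (chr6:33580277-33580526, minus strand): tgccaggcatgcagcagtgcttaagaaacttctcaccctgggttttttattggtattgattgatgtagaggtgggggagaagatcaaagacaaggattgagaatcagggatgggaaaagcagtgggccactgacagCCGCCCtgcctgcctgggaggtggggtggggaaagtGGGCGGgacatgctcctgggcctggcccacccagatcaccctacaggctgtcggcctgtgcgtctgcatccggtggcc
BCL2L11 (chr2:111120664-111120913, plus strand): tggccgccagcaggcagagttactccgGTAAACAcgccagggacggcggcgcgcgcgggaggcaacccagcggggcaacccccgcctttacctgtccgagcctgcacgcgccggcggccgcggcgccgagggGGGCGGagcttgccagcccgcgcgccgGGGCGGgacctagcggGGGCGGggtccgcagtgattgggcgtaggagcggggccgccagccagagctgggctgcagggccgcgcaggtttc
BAX held 4 matches to the E-box and 1 to the GC box. Any match to the E-box was found in 6.46% of all stretches and in 8.59% of those of tested genes. BAK1 held 2 and BCL2L11 held 3 matches to the GC box. BCL2L11 also held 1 match to the FOXO site, found in 3.01% of all stretches and 1.86% of those of tested genes. BCL2L11 was the most GC-rich of the 8 members at 76.8%, and BAK1 had 5 CpG dinucleotides against 34 in BCL2L11.

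The rest of the family was read from lists of genes chosen by name. Of 15 other family genes, 13 were tested; BCL2A1 and BCL2L10, both prosurvival, had at most 10 counts in every library. With the tag as a block, 2 of the 13 rose and 1 fell with E2, against 6.13% and 3.44% of all genes. BMF, a BH3-only gene whose protein is linked to the cytoskeleton, fell from 2.02 to 1.51 CPM in A4 and from 8.17 to 4.39 CPM in B212, a log2 fold change of -0.71 ± 0.15 (SE) with an edgeR adjusted p of 0.00675. In each tag the E2 library was the lower of the pair; A4 had 148 counts with DMSO and 124 with E2, and B212 had 697 and 322. BNIP3, a hypoxia-induced mitophagy receptor, rose from 21.4 to 32.8 CPM in A4 and from 39.3 to 46.4 CPM in B212 (log2 fold change 0.42 ± 0.089, adjusted p = 0.00710 by edgeR). BNIP1, a vesicle-fusion protein with a BH3-like stretch, rose from 15.8 to 23.1 CPM in A4 and from 12.9 to 14.5 CPM in B212 (0.36 ± 0.10, adjusted p = 0.0273 by edgeR). Within tags, the log2 change in A4 and in B212 was -0.42 and -0.89 for BMF and 0.61 and 0.24 for BNIP3. For BNIP1 it was 0.55 and 0.17. Each pair differed beyond counting error, and whether culture-to-culture spread covers this was not tested. The BNIP1 call was lost with DESeq2 size factors in edgeR (adjusted p = 0.0681). It was also lost after the correction for length and base composition (adjusted p = 0.0678 by edgeR). DESeq2 with the block gave no adjusted p for BNIP1 or BMF, and BMF stayed called in the other fits with the block.

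Between the tags, 5 of these 13 genes were higher and 3 lower in B212, where 51.0% of all genes were called (25.2% higher, 25.8% lower). BMF differed most, with a log2 fold change of 1.79 ± 0.15 (SE) and an edgeR adjusted p of 5.89e-09. Of all 8 BH3-only genes tested, BIK, BCL2L11 and BMF were called higher in B212 and 0 lower, while HRK (-0.66), BAD (-0.18) and BID (-0.15) had negative log2 fold changes that did not pass; HRK and BAD are named after their values were seen. With the length and GC trend taken out, 1 of the other BH3-only genes was called lower. BOK, a BAX relative, was called higher in B212 as the only gene of its list.

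Downstream and upstream of the family, 60 of 62 listed genes were tested. With the tag as a block, 2 rose and 1 fell with E2, which is 3 of 60 against 9.56% of all genes. CYCS, the gene of cytochrome c, rose from 431 to 565 CPM in A4 and from 331 to 390.05 CPM in B212 (log2 fold change 0.31 ± 0.073, adjusted p = 0.0113 by edgeR). VDAC3, an outer membrane channel gene, rose from 235 to 323 CPM in A4 and from 169.7 to 189 CPM in B212 (0.31 ± 0.077, adjusted p = 0.0180 by edgeR). CASP2, an initiator caspase gene, fell from 129.5 to 103 CPM in A4 and from 135 to 121 CPM in B212 (-0.24 ± 0.071, adjusted p = 0.0370 by edgeR). Within tags, the log2 change in A4 and in B212 was 0.39 and 0.24 for CYCS and 0.46 and 0.15 for VDAC3. For CASP2 it was -0.33 and -0.15. Each pair differed beyond counting error, and whether culture-to-culture spread covers this was not tested. The E2 call of CYCS was kept under every alternative with the block, whereas those of VDAC3 and CASP2 were lost in edgeR with DESeq2 size factors (adjusted p of 0.0565 and 0.0612). After the correction for length and base composition, the log2 fold change of VDAC3 was 0.10 (adjusted p = 0.320 by edgeR) and the CASP2 call was lost too (adjusted p = 0.0683). None of 18 genes of the p53 list, of 9 tested death receptor genes or of 5 tested inhibitors of apoptosis was called for the E2 comparison when tag was a block. Under scaling by library size alone with the block, 1 of the 18 genes of the p53 list was called lower.

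Between the tags, 17 of the 60 genes were higher and 18 lower in B212, beside the 25.2% higher and 25.8% lower among all genes, which are also the shares for the lists that follow. Of 8 genes for outer membrane channels and released proteins, 7 were lower and 0 higher, against 25.8% lower among all genes. The p53 list had 9 higher and 4 lower of 18, with CDKN1A, the cell cycle inhibitor p21, at a log2 fold change of 1.05 ± 0.081 (SE) and TP53INP1, a stress-response gene, at 1.40 ± 0.075. The adjusted p-values of these 2 genes were 1.36e-09 and 4.60e-12 by edgeR. Of the members that p53 is also known to control, BAX was lower, as given above, and PMAIP1 and BBC3 did not pass the threshold. With no filter on low counts the p53 split was 5 higher and 5 lower, and with DESeq2 5 and 4.

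Regulators of the BH3-only genes split as well, with 3 of 8 higher and 2 lower in B212. FOXO3, a known activator of BCL2L11, was higher by 1.18 ± 0.085 (log2, SE), and TRIB3, a stress-induced pseudokinase gene, was lower, at -1.08 ± 0.077. TNFSF10, the gene of the death ligand TRAIL, was higher at 1.22 ± 0.29 on 26 to 80 counts per library. The largest edgeR adjusted p of these 3 genes was that of TNFSF10, 0.00141, and DESeq2 gave 0.0578 for it. The death receptor list had 3 higher and 3 lower of 9 tested, and the inhibitors of apoptosis 0 higher and 1 lower of 5 tested. None of 4 genes of MCL1 turnover differed past the threshold.

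**Figure D5:**
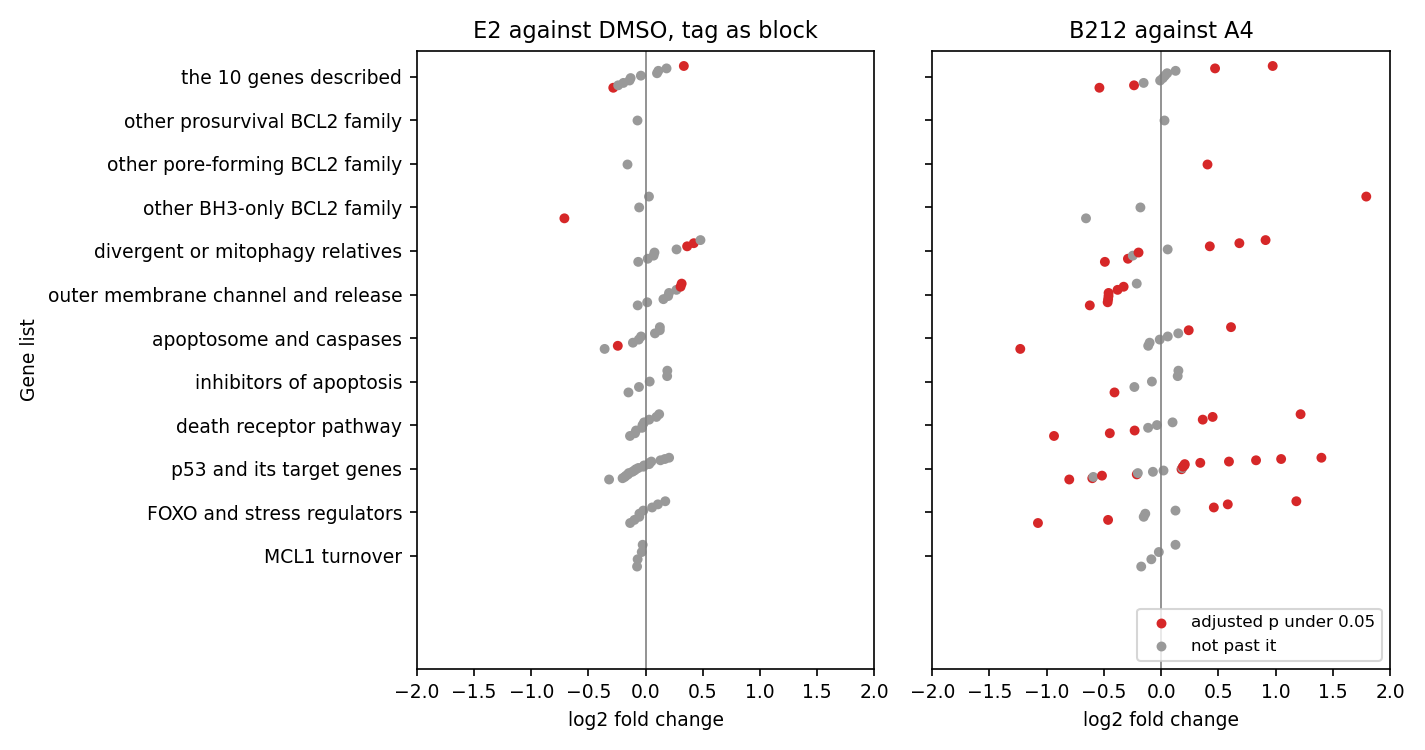
Log2 fold changes of every tested gene of 12 lists for E2, tag as block (left), and for B212 against A4 (right); each point is a gene, red where the edgeR adjusted p is under 0.05. Few points are red on the left, and the outer membrane list lies wholly below 0 on the right.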

How the data were processed

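Poly(A)-selected RNA (500 ng of input per library, stranded kit, per the labels' protocols) of 4 libraries was analysed. The deposited values are raw counts per gene symbol; HISAT2, featureCounts, SAMtools, DESeq2 and the build hg19 are named in the submitters' processing notes, while the annotation and strand setting are not given in the sources used here. The table has 4 further value columns, not used here. Columns were grouped by the treatment in their names.

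Genes were kept by filterByExpr (minimum count 10) and tested with edgeR 4.0.16 (quasi-likelihood, TMM scaling, Benjamini-Hochberg over 15599 genes, threshold 0.05). E2 was fitted with no block and, as an alternative, with tag as block. Same-tag libraries deviated together from their group means (Pearson r = 0.871 across genes), and the pairing rests on column names. Within-tag changes are ratios of scaled counts. Intervals for counting error cover that only. Per the labels, the 2 libraries of a treatment come from different clones, with no repeat of a clone and treatment. Alternatives used DESeq2 1.42.0, limma 3.58.1 and mgcv 1.9.3, in R 4.3.3; figures used matplotlib 3.10.9. Lengths and GC came from GENCODE 29, matched for 93.5% of tested genes, and the scripts were tested on simulated data. The members and lists were chosen with earlier results of these data known. All members were named; of other listed genes, at most 3 per list and direction, called for E2 with the block or called between tags with a log2 fold change of at least 1. One gene that this rule names is not reported here.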

Additional observations from a re-analysis of the deposited data

How the results depend on the processing

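With no block, the E2 count of 0 genes was the same with 2 other scalings, 2 other filters and each library left out, and DESeq2 called 1. On simulated counts with the tag differences kept, the fit with no block found 0 of 200 genes changed by a log2 of 1. A count of 0 with no block thus cannot show that E2 changed no gene. The fit with the block found 198 of them, with 6 false calls. At a log2 of 0.5 it found 171 of 200, with 15 false calls. The simulation gave all genes 1 common spread and equal changes in both tags. It therefore cannot show how well the fit with the block does on these data. A replicate block on tag called 1492; with the block, DESeq2 size factors in edgeR gave 717, library size only 1686, DESeq2 562, limma-voom 1138 and removal of the length and GC trend 918. The members called went from 0 to 2 with the replicate block and with the block and library size only, and to 1, always BCL2L1, under the other 4 fits with the block. Of 6 other genes named for E2, BNIP3 and CYCS were called in all of these fits. The causes were not tested. Between the tags, alternatives called 5538 to 8888 genes and 3 to 4 members; leaving out a library gave no test there. Some values close to 0 changed sign. For B212 against A4 these were BCL2 with library size only (0.059), and PMAIP1 with no filter (-0.0065) and with the trend removed (-0.048); for E2 in B212 it was BAK1 with DESeq2 size factors (-0.0058). Leaving out a library gave E2 log2 fold changes with no block of -0.17 to 0.083 (BAX), -0.23 to 0.41 (BAK1), -0.41 to 0.12 (BCL2L11), -0.34 to 0.79 (BIK), -0.0015 to 0.19 (BID), -1.75 to 0.53 (BMF) and -0.10 to 0.67 (VDAC3), since it unbalances the tags. With no change of sign, BNIP1 ranged from 0.0091 to 0.69, BNIP3 from 0.013 to 0.87, CYCS from 0.032 to 0.57, CASP2 from -0.36 to -0.13, MCL1 from -0.22 to -0.062 and BBC3 from -0.32 to -0.16. BCL2L1 stayed between -0.30 and -0.27 and PMAIP1 between 0.27 and 0.40. Between the tags it gave -0.042 to 0.018 (BCL2), -0.094 to 0.18 (BBC3) and -0.12 to 0.15 (PMAIP1). Depth limits BIK and BBC3, with 110 to 272 counts per library.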

Other observations

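Genes next to the members were read in RefSeq gene order, with the 10 nearest tested genes on each side. Around BIK the 20 neighbours had a median log2 fold change of -0.23 in B212 against A4, with 5 called higher and 11 lower, while BIK itself was at 0.98. Around BCL2L11 the median was -0.31, with 5 called higher and 10 lower, while BCL2L11 was at 0.47. Around BAK1 the median was -0.21, with 3 called higher and 8 lower, and BAK1 was at -0.54. Around BAX the median was 0.028, with 4 called higher and 7 lower, and BAX was at -0.24. Over all genes, 25.2% were called higher and 25.8% lower. The medians around BIK and BCL2L11 were thus below 0 while both genes were higher in B212; no test of the neighbours was made.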
